A study of Homo sapiens
Mus musculus with 5 samples.

Results

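The genes that move glucose, lactate and acid across the tumor cell were described in xenografts of H2030-BrM3, a lung adenocarcinoma line of human origin that forms brain tumors. The set holds 10 human genes, found by symbol among 25524 human genes. It comprises the glucose transporters SLC2A1 and SLC2A3, the monocarboxylate transporters SLC16A1 and SLC16A3, the lactate dehydrogenases LDHA and LDHB, the hexokinases HK1 and HK2, and the carbonic anhydrases CA9 and CA12. In the host, 8 mouse genes of the same symbol were found among 24628 mouse genes, and Car9 and Car12, the mouse symbols of CA9 and CA12, were added as the other 2 counterparts. There were 3 libraries of brain tumors and 2 of orthotopic lung tumors, all grown from this line in athymic nu/nu mice, animals without a thymus and its T cells. The labels state that cells were placed in the lung through the trachea and do not say how the brain was reached. Human genes were read as the cancer cells and mouse genes as the host tissue, within 1 RNA sample per tumor. Whether each tumor had a mouse of its own is not stated, and the p-values therefore reflect the spread among these libraries, which may be technical.

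Glucose enters a cell through facilitative transporters of the SLC2A family and is trapped by hexokinase, the first step of glycolysis. Lactate dehydrogenase interconverts pyruvate and lactate, and lactate leaves or enters with a proton through monocarboxylate transporters. Membrane carbonic anhydrases with an outward-facing active site convert carbon dioxide and water to bicarbonate and a proton and so set the acidity outside the cell. SLC2A1, LDHA, SLC16A3, HK2 and CA9 are textbook targets of the hypoxia-inducible factor HIF-1. In brain, SLC2A1 serves the capillary endothelium, SLC2A3 neurons, and the exchange of lactate between astrocytes and neurons has been studied for decades.

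Levels are RPKM, a read number divided by gene length and by the library's reads of that species. Whole reads recovered from these values ranged for human genes from 2445904 to 8419288 in brain tumors and from 3733689 to 6541037 in lung tumors. For mouse genes they ranged from 2710983 to 8636094 in brain tumors, with 231156 in lung tumor 1 and 5295159 in lung tumor 2. Host markers of neurons, astrocytes and oligodendrocytes marked the brain tumors, with all 17 tested markers called higher there. Lung epithelial markers summed to 17.5 to 54.9 RPKM in brain tumors, 948 RPKM in lung tumor 1 and 64785 RPKM in lung tumor 2. Among human epithelial markers KRT8 lay at 428 to 1343 RPKM in brain and 831 to 906 RPKM in lung tumors, while the lung lineage factor NKX2-1 was at or below 0.594 RPKM in every library. In such bulk samples fewer cells of a type and less RNA per cell cannot be told apart.

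In the cancer cells, none of the 10 genes passed the test between brain and lung. CA9 and SLC16A3 had the most negative differences, and LDHA was also lower in all brain tumors without overlap. The other human members overlapped between the organs. In the host, Slc2a3, Ldhb and Hk1 rose and Slc16a3 fell in the tumor-bearing brain relative to the lung. The calls of Hk1 and Slc16a3 were lost when any 1 brain tumor was left out. Over all tested genes 0.00693% of human and 22.4% of mouse genes passed, so the species differed in calls far beyond this set. The human test covered the 9 members that reached 1 RPKM in 2 or more libraries, and all 10 mouse counterparts passed that filter. Log2(RPKM + 1) was compared with limma, brain minus lung, with adjustment over all tested genes of a species and a threshold of 0.05 on the adjusted p.

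**Figure D1:**
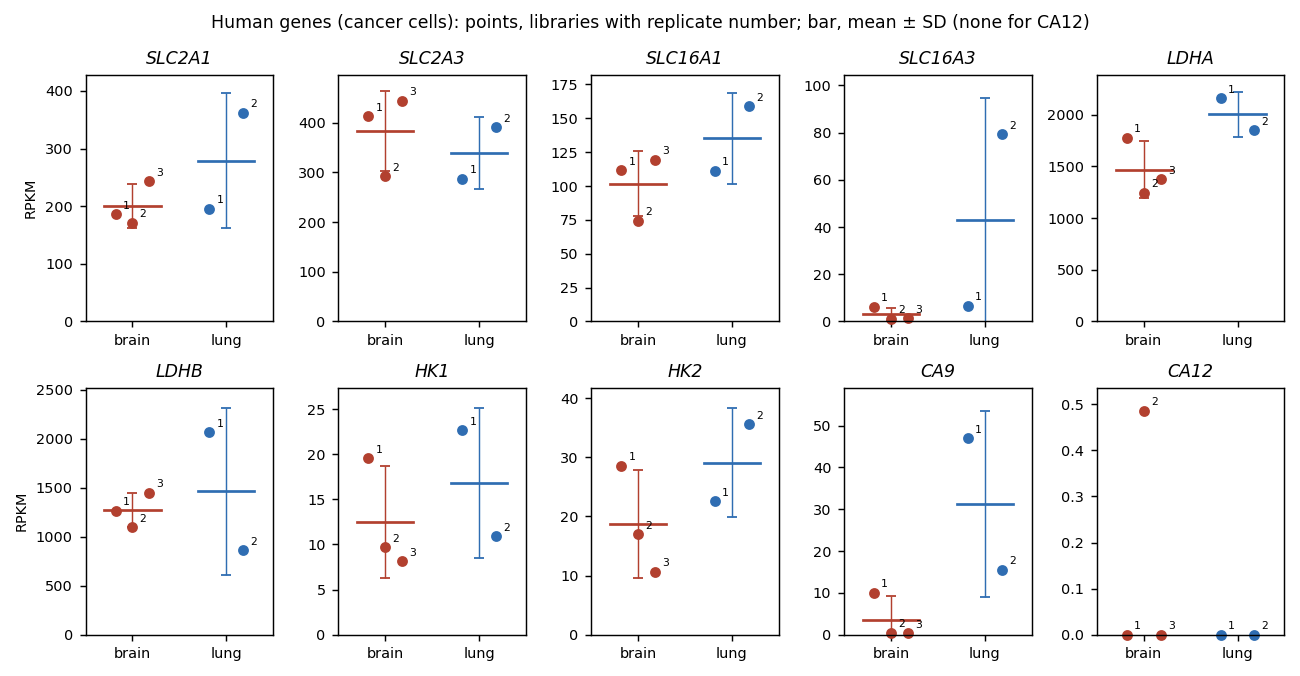
RPKM of the 10 human genes in the 3 brain and 2 lung tumors, on linear axes that start at 0. Points are libraries with their replicate number, horizontal bars are means and whiskers 1 SD. CA9, SLC16A3 and LDHA show no overlap between the organs, with brain tumor 1 closest to the lung tumors in each.

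Among the transporters of the cancer cells, SLC2A1, the widely expressed glucose transporter GLUT1, had 186, 171 and 243 RPKM in brain tumors 1, 2 and 3, against 196 and 362 RPKM in lung tumors 1 and 2. Lung tumor 2 was highest and the other 4 libraries overlapped. The log2 fold change was -0.43 (SE 0.38, limma adjusted p = 0.653). SLC2A3, the high-affinity transporter GLUT3, was more abundant than SLC2A1 in every library. It had 413, 293 and 445 RPKM in brain tumors, against 287 and 391 RPKM in lung tumors. It was the 1 tested human member with a positive log2 fold change, 0.17 (SE 0.35, limma adjusted p = 0.864). With lung tumor 1 left out the estimate for SLC2A3 was -0.051, and with lung tumor 2 left out that for SLC2A1 was 0.013. The close paralog SLC2A14 shares much of its sequence with SLC2A3, so the reads of SLC2A3 may be split between them.

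SLC16A1, which encodes the lactate carrier MCT1, had 112, 74.3 and 119 RPKM in brain tumors, against 111 and 159 RPKM in lung tumors. Lung tumor 1 lay within the range of the brain tumors (log2 fold change -0.41, SE 0.36, limma adjusted p = 0.648). The value was -0.20 without brain tumor 2, -0.67 without lung tumor 1 and -0.16 without lung tumor 2. SLC16A3 encodes MCT4, the carrier known for lactate export from highly glycolytic cells, and spans 82217934 to 82240086 of chromosome 17 (GRCh38.p14, RefSeq). It had 6.26, 1.23 and 1.38 RPKM in brain tumors, on 47, 7 and 3 reads, against 6.71 and 79.4 RPKM in lung tumors, on 39 and 265 reads. All brain tumors were below both lung tumors, but brain tumor 1 and lung tumor 1 were nearly level and lung tumor 2 stood far above the other 4 libraries. The log2 fold change was -2.88 (SE 0.95, 95% interval -5.06 to -0.70, unadjusted p = 0.0156, limma adjusted p = 0.455). It was -1.19 without lung tumor 2 and -4.57 without lung tumor 1, so its size rested on single lung libraries.

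Of the enzymes in the cancer cells, the dehydrogenases were the most abundant members in each library. LDHA, the subunit that prevails in skeletal muscle and glycolytic tumors, had 1775, 1246 and 1375 RPKM in brain tumors, against 2159 and 1849 RPKM in lung tumors. The groups did not overlap, although brain tumor 1 and lung tumor 2 were close (log2 fold change -0.46, SE 0.38, 95% interval -1.33 to 0.41, limma adjusted p = 0.632). LDHB, the subunit that prevails in heart, had 1268, 1100 and 1452 RPKM in brain tumors, against 2067 and 863 RPKM in lung tumors. Here the lung tumors were the highest and the lowest of the 5 libraries, and the log2 fold change was -0.08 (SE 0.45, limma adjusted p = 0.956). That estimate was 0.55 without lung tumor 1 and -0.71 without lung tumor 2.

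HK1, the hexokinase of brain and red cells, had 19.6, 9.68 and 8.12 RPKM in brain tumors, against 22.7 and 10.9 RPKM in lung tumors. These levels rested on 125, 47 and 15 reads in brain and on 112 and 31 reads in lung tumors, and the organs overlapped (log2 fold change -0.41, SE 0.51, limma adjusted p = 0.759). HK2, the inducible hexokinase of muscle and many tumors, had 28.6, 16.99 and 10.7 RPKM in brain tumors, against 22.6 and 35.6 RPKM in lung tumors. Brain tumor 1 lay between the lung tumors, and the difference was -0.68 (SE 0.48, limma adjusted p = 0.579). It was -1.02 without brain tumor 1, -0.35 without brain tumor 3 and -0.36 without lung tumor 2. The order of the hexokinases is uncertain, because the gene length implied by the deposited values was 758 bases for HK1 and 5415 bases for HK2. In reads, HK2 had 1303, 589 and 141 in brain tumors and 797 and 722 in lung tumors, above HK1 in each library.

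Of the carbonic anhydrases, CA9 had the largest human difference of the set. The gene encodes a hypoxia-induced enzyme anchored in the plasma membrane and spans 35673928 to 35681159 of chromosome 9 (GRCh38.p14, RefSeq). Its level was 10.1, 0.441 and 0.386 RPKM in brain tumors, on 90, 3 and 1 reads, against 47.0 and 15.6 RPKM in lung tumors, on 325 and 62 reads. Every brain tumor was below both lung tumors, and brain tumors 2 and 3 were near the limit of detection. The log2 fold change was -3.33 (SE 0.93, 95% interval -5.45 to -1.21, unadjusted p = 0.00656, limma adjusted p = 0.429). Leaving out 1 library at a time gave values from -4.32 to -2.56, and the limma adjusted p reached 0.903. CA12, the related enzyme of kidney and gut epithelium, was listed at 0 in 4 libraries and at 0.486 RPKM in brain tumor 2, so it was not tested. If that value is 1 read, 3 reads would correspond to 1.11 to 3.81 RPKM in the libraries listed at 0, which is the level that could have been missed.

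CA9 and SLC16A3 did not peak in the same tumor. Within the lung, CA9 was higher in lung tumor 1 (47.0 RPKM) than in lung tumor 2 (15.6 RPKM), and SLC16A3 was higher in lung tumor 2 (79.4 RPKM) than in lung tumor 1 (6.71 RPKM). LDHA, LDHB and HK1 were also higher in lung tumor 1, and SLC2A1, SLC2A3, SLC16A1 and HK2 were higher in lung tumor 2. Within the brain, brain tumor 1 had the highest CA9, SLC16A3, LDHA, HK1 and HK2. The share of human reads among all recovered reads was 75.6% in brain tumor 1, 56.5% in brain tumor 2 and 22.1% in brain tumor 3, against 96.6% in lung tumor 1 and 41.4% in lung tumor 2. The part of this share in the levels was not tested.

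Over the 9 tested human members, 8 log2 fold changes were negative and the median was -0.43, against 44.4% negative and a median of 0.09 over all 14423 tested human genes. The limma test called 0 members, as did voom on the recovered reads, while CA9 and SLC16A3 had an unadjusted p under 0.05. Over all tested human genes 1 passed (0.00693%), with 0 calls without any 1 of the brain tumors or without lung tumor 1, and 10.5% had an unadjusted p under 0.05. Brain tumors were below the lung tumors without overlap for 3 of the 9 (CA9, SLC16A3 and LDHA), against 12.3% of tested genes, and above them for 0, against 17.4% (29.7% together). The members were chosen with earlier results of these data known, so these shares describe the set and do not test it. Median-ratio scaling moved the median of all human genes from 0.09 to -0.03, and with it SLC2A3 from 0.17 to 0.03. The number of human calls was 1905 without lung tumor 2, a fit that gives the single remaining lung tumor the spread of the brain group, and 0 of those were members.

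**Figure D2:**
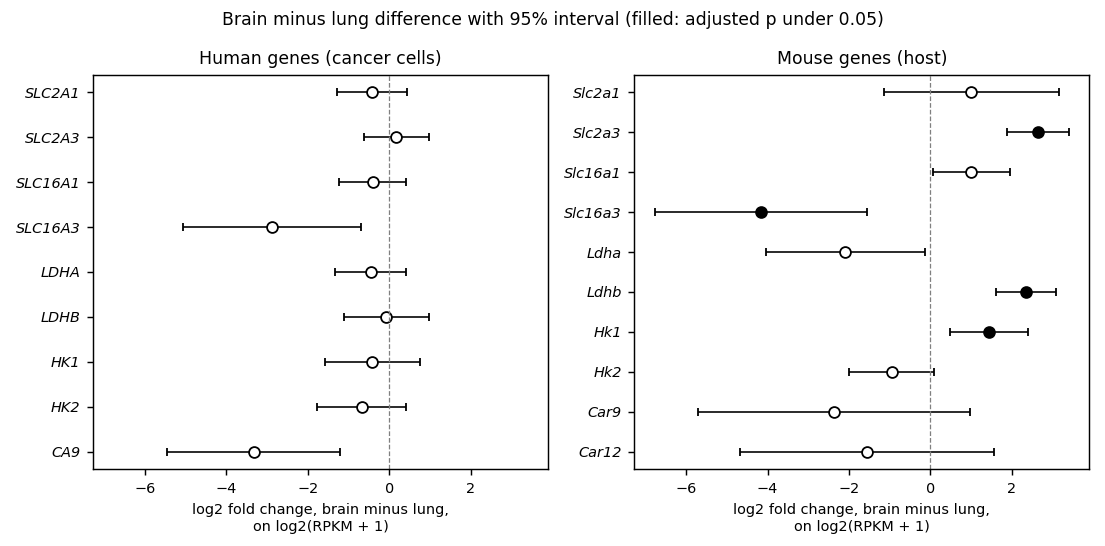
Log2 fold change, brain minus lung, of the 9 tested human members and the 10 mouse counterparts, with 95% intervals from limma on log2(RPKM + 1). Filled points passed an adjusted p of 0.05. They are Slc2a3, Slc16a3, Ldhb and Hk1, all in the host.

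Of the 4 host transporters, Slc2a3 was called higher and Slc16a3 lower, and Slc2a1 and Slc16a1 were not called. Slc2a3 had 205, 293 and 266 RPKM in brain tumors, against 44.1 and 35.4 RPKM in lung tumors. All brain tumors were well above both lung tumors, and the gene rose by 2.64 on the log2 scale (SE 0.31, limma adjusted p = 0.00368). Its level rested on only 6 reads in lung tumor 1 and on 110 reads in lung tumor 2. Slc2a1 had 648, 563 and 521 RPKM in brain tumors, against 839 and 96.7 RPKM in lung tumors, on 139 and 365 reads. The lung tumors lay on either side of the brain tumors, and the difference of 1.01 was not called (SE 0.88, limma adjusted p = 0.439). Without lung tumor 1 the Slc2a1 difference was 2.56, and without lung tumor 2 it was -0.55. Such fits hold 1 lung library and take their spread from the brain tumors alone, so only the effect size is read. Over 14 alternatives the adjusted p of Slc2a1 reached 0.617.

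Slc16a3 fell in the brain, where it had 12.2, 8.58 and 3.02 RPKM, against 463 and 42.9 RPKM in lung tumors. These levels rested on 33, 42 and 26 reads in brain and on 107 and 226 reads in lung tumors. The log2 fold change was -4.16 (SE 1.06, limma adjusted p = 0.0405), or -2.46 without lung tumor 1, where the call was lost. The call was also lost without brain tumor 1 (limma adjusted p = 0.0941), brain tumor 2 (0.119) or brain tumor 3 (0.152). Slc16a1 had 36.6, 24.4 and 19.5 RPKM in brain tumors, against 13.3 and 11.5 RPKM in lung tumors. All brain tumors were above both lung tumors, but the difference of 1.01 did not pass (SE 0.39, limma adjusted p = 0.115).

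**Figure D3:**
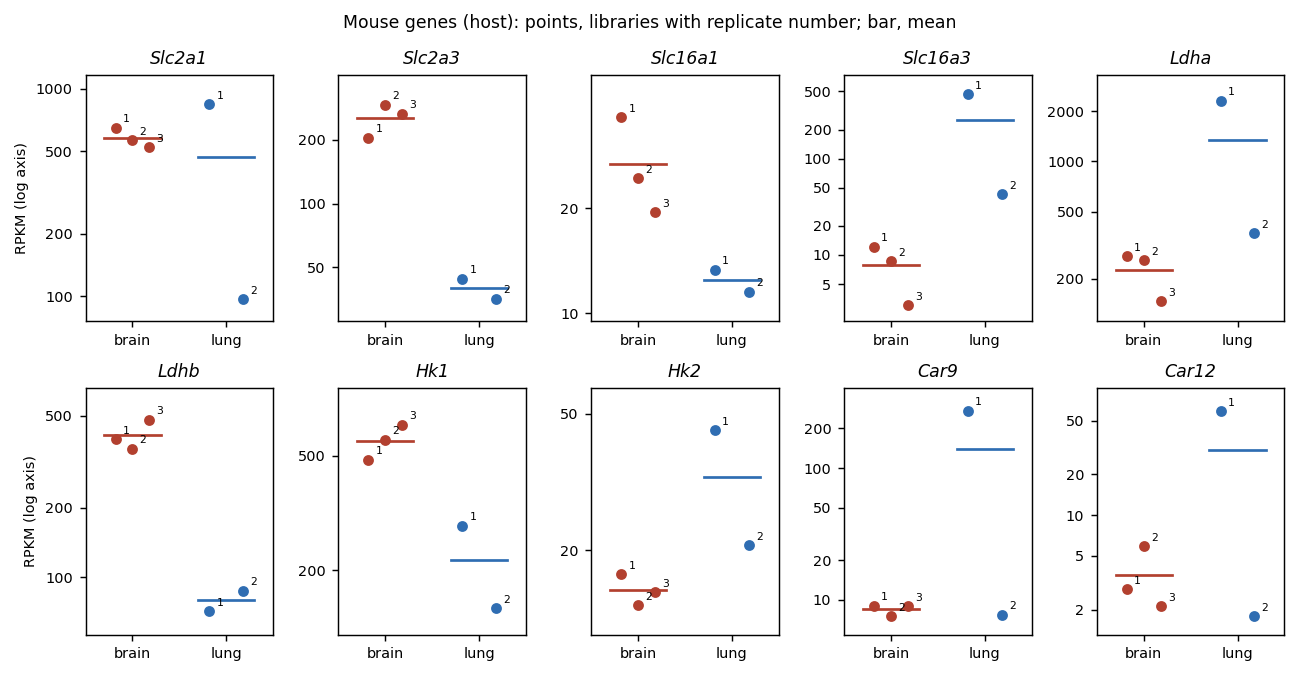
RPKM of the 10 mouse genes in the 3 brain and 2 lung tumors, on log axes. Points are libraries with their replicate number and horizontal bars are means. Slc2a3, Slc16a1, Ldhb and Hk1 were higher in every brain tumor, Slc16a3, Ldha and Hk2 in both lung tumors, and lung tumor 1 stood far above the other libraries for Car9 and Car12.

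Among the host enzymes, Ldhb had 396, 360.3 and 480.5 RPKM in brain tumors, against 71.5 and 87.6 RPKM in lung tumors. The lung levels rested on 14 reads in lung tumor 1 and 391 reads in lung tumor 2. All brain tumors were above both lung tumors, and Ldhb rose by 2.36 on the log2 scale (SE 0.30, limma adjusted p = 0.00474). Ldha lay the other way, at 272, 258 and 146 RPKM in brain tumors, against 2301 and 374 RPKM in lung tumors. Its groups did not overlap either, but the lung tumors differed widely and the change of -2.09 was not called (SE 0.80, limma adjusted p = 0.113). Without lung tumor 2 the Ldha value was -3.40, and without lung tumor 1 it was -0.78. Its limma adjusted p reached 0.308 over 14 alternatives.

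Hk1 had 484, 567 and 639 RPKM in brain tumors, against 285 and 148 RPKM in lung tumors. It rose by 1.44 (SE 0.39, limma adjusted p = 0.0488), at the edge of the threshold. The call was lost without brain tumor 1 (limma adjusted p = 0.128), brain tumor 2 (0.176) or brain tumor 3 (0.167), and the adjusted p reached 0.232 over 14 alternatives. Hk2 had 17.03, 13.9 and 15.1 RPKM in brain tumors, against 44.8 and 20.7 RPKM in lung tumors. Its difference was -0.95 (SE 0.42, limma adjusted p = 0.155) over all libraries. It was -1.49 without lung tumor 2 and -0.42 without lung tumor 1, and its limma adjusted p reached 0.372 over 14 alternatives. The 44.8 RPKM of lung tumor 1 rested on 9 reads.

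The host carbonic anhydrases were high in 1 library. Car9 had 9.01, 7.47 and 8.97 RPKM in brain tumors, against 272 and 7.70 RPKM in lung tumors (log2 fold change -2.37, SE 1.36, limma adjusted p = 0.253). Car12 had 2.84, 5.90 and 2.13 RPKM in brain tumors, against 58.7 and 1.79 RPKM in lung tumors (log2 fold change -1.57, SE 1.27, limma adjusted p = 0.406), but with voom on recovered reads the Car12 difference was 0.022. Lung tumor 1 alone was high, on 31 reads of Car9 and 23 reads of Car12. Without it the differences were 0.12 and 0.64, opposite in sign, and without lung tumor 2 they were -4.85 and -3.78. In lung tumor 1, 96.6% of the recovered reads were human, human CA12 was listed at 0, and human CA9 had its highest level (47.0 RPKM, on 325 reads).

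Of the 10 host genes 3 were called higher and 1 lower, against 14.3% and 8.12% of the 15431 tested mouse genes (22.4% in either direction). Groups without overlap were seen for 4 higher and 3 lower members, where 30.0% and 26.2% of tested mouse genes were so (56.1% together). The host calls over all genes moved from 3457 to 8275 without lung tumor 2, and to 1518, 1195 and 1294 without brain tumors 1, 2 and 3. Median-ratio scaling moved the median of all mouse genes from 0.08 to 0.22, and no counterpart changed its sign or its call with it. Most cell type marker lists also differed between the organs. Microglia markers overlapped, at sums of 64.3 to 300 RPKM in brain and 140 to 222 RPKM in lung tumors (0 of 4 called). Neuron markers summed to 1321 to 2225 RPKM in brain tumors and 5.21 to 31.6 RPKM in lung tumors, and astrocyte markers to 10703 to 13145 and 151 to 187 RPKM, with 6 of 6 markers of each list called higher. Macrophage markers summed to 61.9 to 461 RPKM in brain and 4337 to 6544 RPKM in lung tumors (2 of 4 called lower), and erythroid markers to 5.42 to 148 and 2268 to 5341 RPKM (5 of 5 called lower). Neutrophil markers summed to 4.41 to 9.58 and 339 to 432 RPKM, and the 2 tested, S100a8 and S100a9, were called lower. The other 2 did not share this. Ly6g was above 0 only in lung tumor 2 (1.74 RPKM), and Elane only in brain tumors 1 and 2 (0.392 and 0.433 RPKM). Endothelial markers summed to 80.8 to 167 RPKM in brain tumors, 92.0 RPKM in lung tumor 1 and 1266 RPKM in lung tumor 2. Fibroblast markers summed to 90.0 to 556 RPKM in brain and 5839 to 12179 RPKM in lung tumors (3 of 4 called lower), and muscle markers to 5.10 to 8.13 and 397 to 704 RPKM (1 of 4 called lower). The lung tumors differed within these lists. The macrophage genes Marco and Lyz2 had 3210 and 2777 RPKM in lung tumor 1, against 29.2 and 4216 RPKM in lung tumor 2. The skeletal muscle genes Acta1 and Ckm had 406 and 294 RPKM in lung tumor 1, against 0.258 and 8.08 RPKM in lung tumor 2, and the heart muscle genes Myh6 and Actc1 had 0 and 4.75 RPKM, against 286 and 103 RPKM in lung tumor 2. The part of cell makeup in the host differences was not tested.

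**Figure D4:**
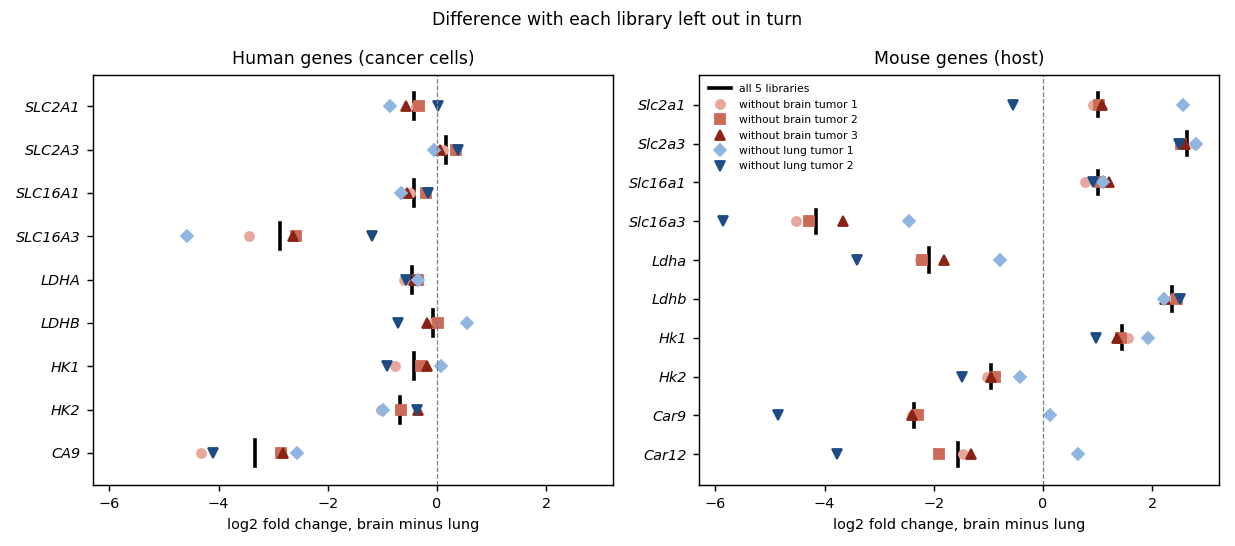
Log2 fold change, brain minus lung, of each tested gene with all 5 libraries (black bar) and with 1 library left out (symbols). Human CA9, SLC16A3, LDHA, HK2 and SLC16A1 stayed below 0 in each of these fits, and host Slc2a3, Slc16a1, Ldhb and Hk1 above 0, while Car9, Car12 and Slc2a1 crossed 0 when 1 lung tumor was left out.

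Related genes were also compared within each library. In the cancer cells, SLC16A1 exceeded SLC16A3 by 17.9, 60.5 and 86.5 times in brain tumors, against 16.6 and 2.00 times in lung tumors, in RPKM. On the log2 scale with 1 RPKM added, the balance averaged 4.90 ± 0.87 in brain (SD, n = 3) and 2.43 ± 2.03 in lung tumors (n = 2), and the exact permutation p was 0.2. This is the smallest value that 3 against 2 libraries allow when both directions count. The difference was 2.47, and it ran from 1.03 without lung tumor 2 to 3.91 without lung tumor 1. SLC2A1 was 0.451, 0.585 and 0.547 times SLC2A3 in brain tumors, against 0.682 and 0.926 times in lung tumors, again without overlap (difference -0.60, exact permutation p = 0.2). LDHA was 1.40, 1.13 and 0.947 times LDHB in brain tumors and 1.04 and 2.14 times in lung tumors, which overlapped (difference -0.39, exact permutation p = 0.6). HK1 over HK2 overlapped as well (difference 0.26, exact permutation p = 0.8). CA9 over CA12 differed by -3.52 (exact permutation p = 0.2), which follows CA9 alone, since CA12 was listed at 0 in 4 libraries.

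In the host, 3 of the 5 balances had groups that did not overlap. Of single tested mouse genes, 56.1% were without overlap, and the share over all pairs of genes was not computed. Ldha was 0.686, 0.715 and 0.305 times Ldhb in brain tumors, against 32.2 and 4.27 times in lung tumors. The value in lung tumor 1 rested on 202 reads of Ldha and 14 of Ldhb. In that library 96.6% of the recovered reads were human, with 10562 reads of human LDHA. Slc16a1 was 3.00, 2.84 and 6.44 times Slc16a3 in brain tumors, against 0.0288 and 0.269 times in lung tumors. In RPKM both ratios lay on opposite sides of 1 in the 2 organs. For Slc16a1 over Slc16a3 the side depends on the implied gene lengths of 4530 and 997 bases, since lung tumor 2 had 276 reads of Slc16a1 and 226 of Slc16a3, while lung tumor 1 had 14 and 107. Hk1 was 28.4, 40.9 and 42.2 times Hk2 in brain tumors, against 6.37 and 7.12 times in lung tumors. The value in lung tumor 1 rested on 45 reads of Hk1 and 9 of Hk2. The differences on the log2 scale were -4.44, 5.17 and 2.40, with the groups apart in each and an exact permutation p of 0.2. With 1 library left out they ran from -5.90 to -2.99, 3.56 to 6.77 and 2.29 to 2.57. Slc2a1 over Slc2a3 (difference -1.63) and Car9 over Car12 (difference -0.80) overlapped, with an exact permutation p of 0.4 for each. The Slc2a1 over Slc2a3 difference was -0.24 without lung tumor 1 and -3.03 without lung tumor 2, and that of Car9 over Car12 was -0.39 without brain tumor 2 and -0.52 without lung tumor 1. After Benjamini-Hochberg adjustment over the 5 pairs of a species the lowest p was 0.333 in both species.

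**Figure D5:**
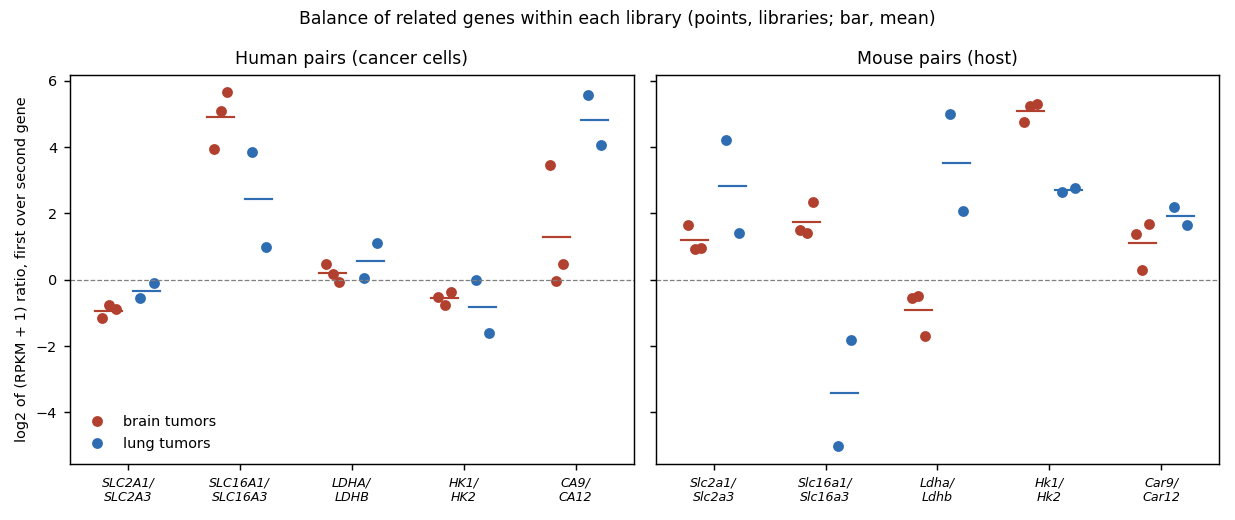
Log2 ratio of (RPKM + 1) between related genes, first over second, within each library, for human and mouse pairs. Points are libraries, with brain tumors left of lung tumors in each pair, and bars are means. In the host, the RPKM-based Ldha/Ldhb and Slc16a1/Slc16a3 lie on opposite sides of 0 in brain and lung tumors, and the cancer-cell LDHA/LDHB values overlap.

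Cancer and host levels were set side by side within a library, although the 2 tables are scaled separately and gene lengths differ. Host Hk1 was 24.7, 58.6 and 78.7 times human HK1 in brain tumors, and 12.6 and 13.5 times in lung tumors. For Ldhb the host level was 0.313, 0.328 and 0.331 times that of human LDHB in brain tumors, and 0.0346 and 0.102 times in lung tumors. Host Slc2a1 was 3.48, 3.29 and 2.14 times human SLC2A1 in brain tumors, and 4.28 and 0.267 times in lung tumors. For Slc16a3 the host level was 1.95, 6.995 and 2.19 times the human one in brain tumors, and 68.9 and 0.540 times in lung tumors. None of the 10 members had groups apart in opposite directions in cancer and host, but only CA9, SLC16A3 and LDHA were apart in the cancer cells at all. Of these, SLC16A3 and LDHA were lower in brain without overlap in both, and Car9 overlapped in the host. Over all tested genes 29.7% of human and 56.1% of mouse genes were without overlap, and 12.3% and 26.2% were so with brain lower. The share over all human and mouse gene pairs was not computed, so these counts are not set against it.

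Other genes of the pathway, 58 in a list of sugar carriers, glycolysis, pyruvate fate and acid handling, gave 0 calls among 40 tested in the cancer cells by limma and 0 by voom, with 9 at an unadjusted p under 0.05, against 10.5% of all tested human genes. Their median log2 fold change was -0.24, with 26 negative, against 44.4% of all tested human genes. In glycolysis 14 of 16 were negative (median -0.57), 7 were below both lung tumors in every brain tumor, against 12.3% of all tested human genes, and PFKM was above both, against 17.4%. The list was also drawn up with earlier results of these data known, so these shares do not test it. PGK1, which makes the first ATP of the pathway, had 432, 277 and 282 RPKM in brain tumors, against 656 and 622 RPKM in lung tumors (limma adjusted p = 0.469). ALDOC, an aldolase, had 27.0, 6.90 and 12.4 RPKM, against 71.5 and 32.0 RPKM (limma adjusted p = 0.459). The abundant GAPDH overlapped, at 3384, 2467 and 3069 RPKM in brain and 6302 and 2724 RPKM in lung tumors. Of 9 tested genes of pyruvate fate, PDK1, a kinase that turns off pyruvate dehydrogenase, had 51.2, 29.7 and 33.5 RPKM in brain tumors, against 89.6 and 79.1 RPKM in lung tumors (limma adjusted p = 0.452). Its relative PDK4 lay the other way, at 36.0, 59.1 and 150.5 RPKM in brain and 28.6 and 29.8 RPKM in lung tumors (limma adjusted p = 0.482). PDHA1, a subunit of pyruvate dehydrogenase itself, was below both lung tumors in every brain tumor (log2 fold change -0.57, limma adjusted p = 0.519).

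Among other carriers of the cancer cells, EMB, which encodes embigin, a chaperone of monocarboxylate transporters, had 25.8, 31.0 and 34.4 RPKM in brain tumors, against 9.62 and 15.9 RPKM in lung tumors (limma adjusted p = 0.454). BSG, the chaperone basigin that brings SLC16A1 and SLC16A3 proteins to the membrane, was abundant and overlapped (747 to 920 RPKM in brain and 748 to 1274 RPKM in lung tumors). SLC2A8 was lower in every brain tumor (18.4 to 31.1 RPKM, against 32.4 and 50.4 RPKM in lung tumors), and SLC2A6 was at or below 3.40 RPKM throughout. HKDC1, a hexokinase-like gene, was at or below 0.940 RPKM in brain and at 1.94 and 5.07 RPKM in lung tumors. Of 9 tested acid handling genes 7 were positive. ATP6V1A, a subunit of the proton pump of lysosomes, had 204, 214 and 220.2 RPKM in brain tumors, against 94.2 and 138 RPKM in lung tumors (limma adjusted p = 0.469). CA11, a catalytically inactive relative of CA9, was at 198 to 356 RPKM in brain and at 307 and 71.7 RPKM in lung tumors, and the anion exchanger gene SLC4A2 at 362 to 522 and at 482 and 395 RPKM.

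In the host, 50 of these genes were tested, and 9 were called higher and 1 lower in brain tumors by limma, against 14.3% and 8.12% of all tested mouse genes. The share called higher was thus near that over all genes. The bicarbonate cotransporter gene Slc4a4, an astrocyte gene, rose by 4.41 on the log2 scale (217, 155 and 231 RPKM in brain tumors, against 7.28 and 9.65 RPKM in lung tumors). Aldoc, the brain aldolase, rose by 6.31, the enolase gene of neurons Eno2 by 3.96 and the phosphofructokinase gene Pfkm by 3.55. Car11 rose by 3.73, Pdk2 by 2.68, the insulin-responsive glucose carrier gene Slc2a4 by 1.74 and Atp6v1a by 1.63. In lung tumor 1 these genes had from 2 reads (Car11 and Slc2a4) to 39 reads (Atp6v1a), with 4 for Pdk2 and 5 for Slc4a4. Gapdh rose by 2.83, but it was listed at only 10.8 to 18.3 RPKM in brain tumors and at 0 and 3.93 RPKM in lung tumors, and its many near-identical copies in the mouse genome make its reads uncertain. Car3, the carbonic anhydrase of muscle and fat, fell by 3.25, with 0.571 to 1.03 RPKM in brain tumors and 24.2 and 9.94 RPKM in lung tumors. Of the lists without a call, the hexokinase gene Hk3 of leukocytes had 5.55, 3.27 and 0.349 RPKM in brain tumors, against 49.1 and 8.29 RPKM in lung tumors (limma adjusted p = 0.101). Emb was at 8.31 to 18.1 RPKM in brain and at 24.3 and 64.4 RPKM in lung tumors, opposite in sign to human EMB (limma adjusted p = 0.0904), and Bsg overlapped, as did Hkdc1.

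The human genes whose profile over the 5 libraries was closest to each member were found by the root mean square difference in log2(RPKM + 1), after centring each gene on its mean. For SLC16A3, with a spread of 1.87 about its own mean, the nearest were RASD1, a Ras-like gene induced by glucocorticoid, at 0.26, and C11orf86 at 0.30. RASD1 had 9.26, 1.45 and 1.52 RPKM in brain tumors, against 5.41 and 103 RPKM in lung tumors. For CA9, with a spread of 2.02, they were MIR7111 at 0.38 and PI3, which encodes the protease inhibitor elafin, at 0.60. PI3 had 5.82, 2.11 and 0.693 RPKM in brain tumors, against 53.2 and 13.1 RPKM in lung tumors. The other members varied less (spreads of 0.26 to 0.57), and close matches are easily found over 5 libraries. They were CSNK1E and LINC00607 for SLC2A1, PPP3CB-AS1 and KLHL25 for SLC2A3, CTTN and GRAMD2 for SLC16A1, PQLC3 and PSMB9 for LDHA, GNB2L1 and BTF3 for LDHB, AHSA1 and CHL1-AS2 for HK2, and FTH1P20 and Y_RNA for HK1, at differences of 0.04 to 0.13.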

How the data were processed

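Expression was analysed in 5 libraries, 3 of brain tumors and 2 of lung tumors. The authors deposited RPKM per gene in a human table (hg38, GRCh38) and a mouse table (mm10, GRCm38), with the builds taken from the submitters' processing notes. How reads were aligned, counted and split between the species, and which gene lengths were used, is not given in the sources used here. Each column was matched to its sample through the library number in the sample's description, which left 0 columns over. Whole reads were recovered from the RPKM steps of all 25524 human and 24628 mouse genes within 1e-06 reads. They are lower bounds up to a common divisor and are not fixed for genes above 0 in 1 library. Intervals of reads would cover counting error only.

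Genes with an RPKM of at least 1 in 2 or more libraries were fitted as log2(RPKM + 1) with limma 3.58.1 in R 4.3.3 (eBayes with trend, Benjamini-Hochberg adjustment per species, tested on simulated data). Balances were tested by exact permutation in scipy 1.17.1. The members and lists were chosen with earlier results of these data known, so their shares beside those of all genes are descriptive in both species. All members were named. Pathway genes were named if called, or, where a subgroup had 0 calls in a species, as the 2 with the lowest p and the most abundant. The alternatives were 2 pseudocounts, 2 filters, median-ratio scaling, eBayes without trend, a replicate block, gene-length correction, voom on recovered reads and leaving out each library. RefSeq gave positions of human genes for GRCh38.p14. Sequences were not used here.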

Additional observations from a re-analysis of the deposited data

How the results depend on the processing

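Of 126 refits of the 9 human members 119 kept their direction and side of the threshold, and of 140 refits of the 10 mouse counterparts 117 did. Human estimates that changed sign were LDHB (0.023 without brain tumor 2, and -0.71 to 0.55 with a library left out), HK1 (-0.91 to 0.080), SLC2A3 (-0.051 to 0.39) and SLC2A1 (-0.87 to 0.013), the ends of each range being the fits without a lung tumor. Host estimates that did were Car12 (0.022 with voom, and -3.78 to 0.64 with a library left out), Car9 (-4.85 to 0.12) and Slc2a1 (-0.55 to 2.56). Slc2a3 was called in all 14 refits (adjusted p 0.00284 to 0.0362), and Ldhb in all but the replicate block.

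Human genes called, 1 over all libraries, numbered 0 with voom and 0 to 1905 with a library left out. Mouse genes called, 3457 over all libraries, numbered 2295 with no filter and 1195 to 8275 with a library left out. Host members called, 4 over all libraries, numbered 2 with a pseudocount of 0.1, 2 with no filter and 2 to 8 with a library left out. With the pseudocount of 0.1 and with no filter Slc16a3 (adjusted p = 0.0514 and 0.0710) and Hk1 (0.0549 and 0.108) were lost, and Hk1 also without the eBayes trend (0.0590). The human median, -0.43, was -0.67 to -0.32 with a library left out. The host median, 0.03, was -0.23 with gene-length correction and -1.02 to 0.87 with a library left out. The LDHA/LDHB and HK1/HK2 balances were -0.90 to 0.13 and -0.55 to 1.07 with a library left out. Fits without a lung tumor take their spread from the brain tumors alone. The causes were not tested.

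With the replicate number as a block, 114 human and 1484 mouse genes and 2 human and 2 host members were called. The human members were SLC16A3 (-2.63, adjusted p = 0.00666) and CA9 (-2.82, adjusted p = 0.00253), and in the host Ldhb (adjusted p = 0.0522) and Hk1 (0.232) were lost. The labels do not say that numbers pair tumors, and deviations of same-numbered libraries correlated at -0.08 and 0.06 in human and 0.03 and 0.05 in mouse genes. With 2 lung tumors the deviations of one are the other's with the sign turned, so these values cannot decide whether numbers pair tumors. Only 2 numbers are shared, so brain tumor 3 adds nothing to the differences or the residual spread of the block fit. Without brain tumor 3 and without the block, SLC16A3 and CA9 had the same differences and a limma adjusted p of 0.683 each. The small p-values of the block fit thus rest on how alike the differences were in the 2 shared numbers. Depth limits CA9 and SLC16A3 in brain tumors 2 and 3, at 1 to 7 reads, and host genes in lung tumor 1.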
